A study of Homo sapiens with 6 samples.

Results

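Ishikawa cells, a human endometrial adenocarcinoma line that carries the estrogen receptor, were compared with 2 clones of the same line in which ETV4 had been knocked out, all 3 treated with estradiol. The comparison rests on 3 of the 6 RNA-seq libraries of the study: 1 of knockout clone 1, 1 of knockout clone 2 and 1 of the parental line, each after 10 nM 17β-estradiol (E2). Each line had first been held for 5 days in medium stripped of hormones. The other 3 libraries are the same 3 lines after the vehicle, 0.1% DMSO, and were used as a reading that shares the lines but no library. Genes were selected when the read count, scaled to a common library depth (CPM), was at least 2-fold higher, or at least 2-fold lower, in both clones than in the parental library. Of 12367 genes whose level averaged 2 CPM or more across all 6 libraries, 148 met that rule, 84 higher and 64 lower. Each knockout line is 1 clone, the parental line gave 1 library per treatment, and how the gene was disrupted is not described in the labels. The labels disagree on how long the hormone was present, with 8 h in the protocol and 1 h in the sample characteristics.

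ETV4 belongs to the PEA3 group of ETS transcription factors, with ETV1 and ETV5. These factors bind a GGAA core in DNA, are activated by phosphorylation through the ERK pathway, and are often raised in carcinomas. E2 acts on the estrogen receptor encoded by ESR1, a nuclear receptor that binds DNA directly or through other factors, and classical targets such as PGR (the progesterone receptor) and GREB1 rise when it is active in endometrial cells. The title of the series names estrogen signalling and growth as the processes for which ETV4 was examined.

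ETV4 transcript stood at 28.4 CPM in the parental E2 library, 2.95 CPM in clone 1 and 2.77 CPM in clone 2, which is 10.1% ± 0.449 of the parental level (SD over the 2 clones). The targeted gene therefore matched the labels in all 3 E2 libraries, although reads from a disrupted gene do not show whether protein was made. The E2 libraries held 28943494 counts for clone 1, 28401778 for clone 2 and 36829479 for the parental line. All 14 glandular epithelial markers, such as keratins and EPCAM, were measured, with summed levels of 2925 and 2966 CPM in the clones and 3135 CPM in the parental line. Of 12 leukocyte markers 1 was measured, CD68, and CD3E, CD3D, MS4A1 and NKG7 had no count in any E2 library, with sums between 4.94 and 6.01 CPM. Of 10 endothelial markers 2 were measured, CDH5 and EMCN had no count, and the sums lay between 7.83 and 9.84 CPM. For fibroblasts 4 of 12 markers were measured and FAP had no count, with sums of 568 and 461 CPM in the clones and 468 CPM in the parental line. Most of each fibroblast sum was 1 gene, FBLN1, at 515 and 400 CPM in the clones and 377 CPM in the parental line. For smooth muscle 5 of 8 were measured, with sums of 75.6 and 92.8 CPM in the clones and 100 CPM in the parental line. With bulk RNA, fewer cells with a transcript and less transcript per cell cannot be told apart.

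The genes higher in both clones made up 0.679% of those measured and the genes lower in both made up 0.518%. Clone 1 alone had 239 genes at least 2-fold higher and 151 lower than the parental library, and clone 2 had 159 higher and 196 lower. The genes moved the same way in the other clone were 37.9% of the clone 1 genes beyond the line and 41.7% of the clone 2 genes, and both ratios share the single parental library. A further 19 genes stood at least 2-fold apart from the parental library in opposite directions in the clones. The clones themselves were at least 2-fold apart for 304 genes, and the SD of their difference over all genes, 0.43 on the log2 scale, equalled the SD of each clone's ratio to the parental line. Among the selected genes, 14 of the higher and 9 of the lower ones differed at least 2-fold between the clones. A 4-fold line in both clones was passed by 9 higher and 13 lower genes. The parental level of 17 of the higher genes rested on fewer than 50 counts (6 at the least), while no lower gene had under 85. The selection largely sets that contrast, because the parental library is the high one for lower genes. Their low counts lie in the clones, such as 4 for PLXDC2 and 5 for TUNAR in clone 2.

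**Figure D1:**
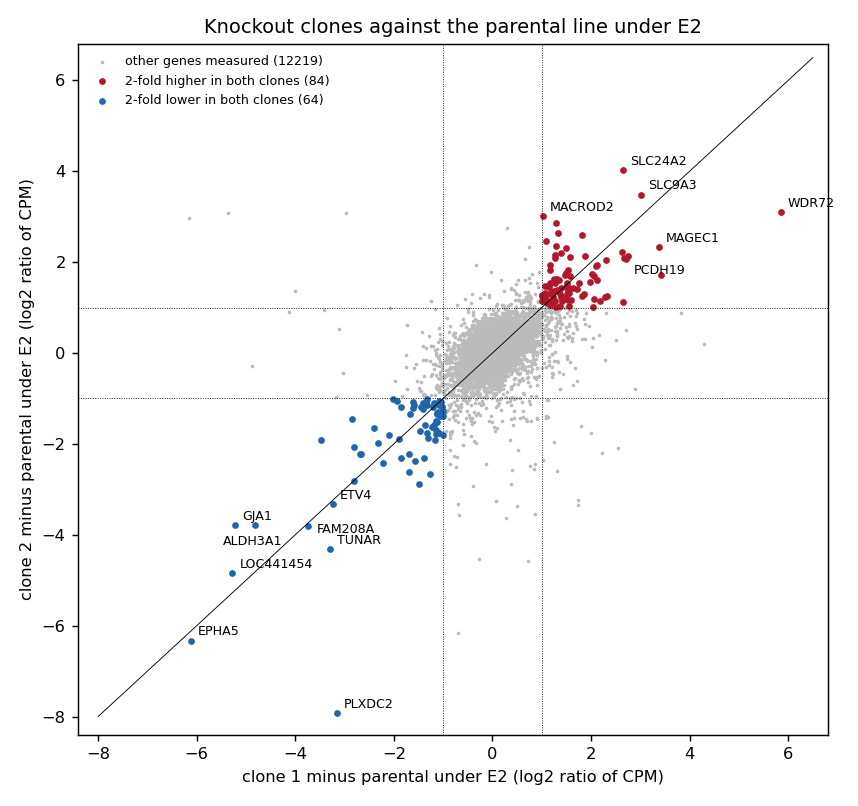
Log2 ratio to the parental E2 library in clone 1 (horizontal) and clone 2 (vertical) for 12367 genes, with dotted lines at 2-fold and a diagonal of equal ratios. The 84 red genes lie beyond both lines above and the 64 blue genes beyond both below, with EPHA5 far from the rest near -6 in both clones and PLXDC2 much lower in clone 2 than in clone 1.

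A formal test was possible only by taking the spread from the 2 clones and assuming that the lone parental library varies like them. With that assumption edgeR's quasi-likelihood test gave a Benjamini-Hochberg adjusted p below 0.05 for 4 of 15254 genes (0.0262%), all 4 lower in the clones, and an unadjusted p under 0.05 for 919. The 4 genes were EPHA5, LOC441454, FAM208A and ETV4 itself. A fit over all 6 libraries called 2 of 15611 genes (0.0128%) for the same contrast, EPHA5 and LOC441454, and lost ETV4 (edgeR adjusted p = 0.0777) and FAM208A. Leaving the E2 library of 1 clone out of the 6-library fit took the spread from the DMSO libraries of the clones alone. The number called by such a fit is not read. The p-values measure only the spread between 2 clones, and an exact two-sided permutation test of 2 libraries against 1 cannot go below 0.667. All the other genes are therefore given by their levels, as a description.

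EPHA5, a receptor tyrosine kinase for ephrin-A ligands that mediates signals between touching cells, had the widest gap in both clones together. Its level was 71.0 CPM in the parental library, 0.960 CPM in clone 1 and 0.820 CPM in clone 2. EPHA5 fell by 6.32 on the log2 scale (SE 0.209, edgeR quasi-likelihood adjusted p = 0.00283), and both clones kept about the same residue of transcript. GJA1 encodes connexin 43, the main gap junction channel of many epithelia. It stood at 691 CPM in the parental library against 18.4 and 49.98 CPM, 22.7-fold lower on average, and did not pass the test (log2 change -4.35, SE 0.52, edgeR adjusted p = 0.216). PCDH7, a cell adhesion protocadherin, stood at 5.67 CPM in the parental library and 0.754 and 0.752 CPM in the clones, 7.02-fold lower. PLXDC2, a transmembrane protein with a plexin-like domain, differed widely between the clones, with 48.4 CPM in the parental library, 5.38 CPM in clone 1 and 0.137 CPM in clone 2. The clone 2 value of PLXDC2 is only a few reads.

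FAM208A, also known as TASOR, is the scaffold of the HUSH complex, which silences repeated elements and newly inserted genes. Its transcript was at 22.9 CPM in the parental library and 1.65 and 1.57 CPM in the clones. FAM208A fell by 3.84 on the log2 scale (SE 0.258, edgeR quasi-likelihood adjusted p = 0.0438). The call was lost in the 6-library edgeR fit, with an adjusted p of 0.264. Of the 10 alternatives run, only DESeq2 and the fits without the E2 library of 1 clone kept it. The other 7 genes of the complex and its partners stayed near the parental level: MPHOSPH8 read 76.2 CPM in the parental library and 75.2 and 78.4 CPM in the clones. PPHLN1 read 108 CPM against 107 and 106 CPM.

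LOC441454 fell by 5.15 on the log2 scale (SE 0.286, edgeR quasi-likelihood adjusted p = 0.0258). It read 30.2 CPM in the parental E2 library and 0.720 and 0.991 CPM in the clones, while all 3 DMSO libraries were below 1 CPM (parental 0.639, clones 0.419 and 0.546). The high value is thus found in 1 library only, and LOC symbols of this kind can share reads with near-identical genes. ALDH3A1, an aldehyde dehydrogenase of the aryl hydrocarbon receptor gene battery, had 91.2 CPM in the parental library and 3.19 and 6.59 CPM in the clones, 19.6-fold lower. ALDH1L1, a folate-dependent relative, had 7.19 CPM against 3.50 and 3.11 CPM. Of 20 measured aldehyde dehydrogenase and battery genes these were the 2 below the 2-fold line, and none lay above it. ALDH1A2, of the same list but under the level filter, went the other way, at 0.401 CPM against 2.57 and 2.43 CPM. CYP1B1, a standard target of the aryl hydrocarbon receptor, read 21.5 CPM in the parental library and 18.6 and 16.4 CPM in the clones.

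Secreted and matrix proteins were also among the lower genes. ADAMTS7, a secreted metalloproteinase, read 15.9 CPM in the parental library and 2.43 and 3.35 CPM in the clones. TGFBI, a matrix protein induced by TGF-beta, read 8.52 CPM against 1.78 and 1.54 CPM. COL4A2, a basement membrane collagen chain, read 42.2 CPM against 10.97 and 20.4 CPM, and ITGB3, an integrin subunit, read 21.1 CPM against 9.87 and 10.1 CPM. A total of 3 collagen genes were at least 2-fold lower in both clones, COL4A2, COL26A1 and COL3A1, of 21 measured. Of 32 measured matrix, laminin and integrin genes, 2 were lower (COL4A2 and ITGB3) and 1 higher (ITGB8), with a median of -0.10. COL5A1, of the same list but under the level filter, read 5.83 CPM in the parental library and 0.583 and 0.478 CPM in the clones. COL3A1 is also one of the fibroblast markers, with 9.73 CPM in the parental library and 1.34 and 2.29 CPM in the clones. The part of fibroblast transcripts in that value was not tested. G0S2, an inhibitor of the triglyceride lipase ATGL, read 58.4 CPM against 9.08 and 12.4 CPM, and TUNAR, first described as a noncoding RNA of pluripotent cells, read 4.60 CPM against 0.411 and 0.171 CPM.

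**Figure D2:**
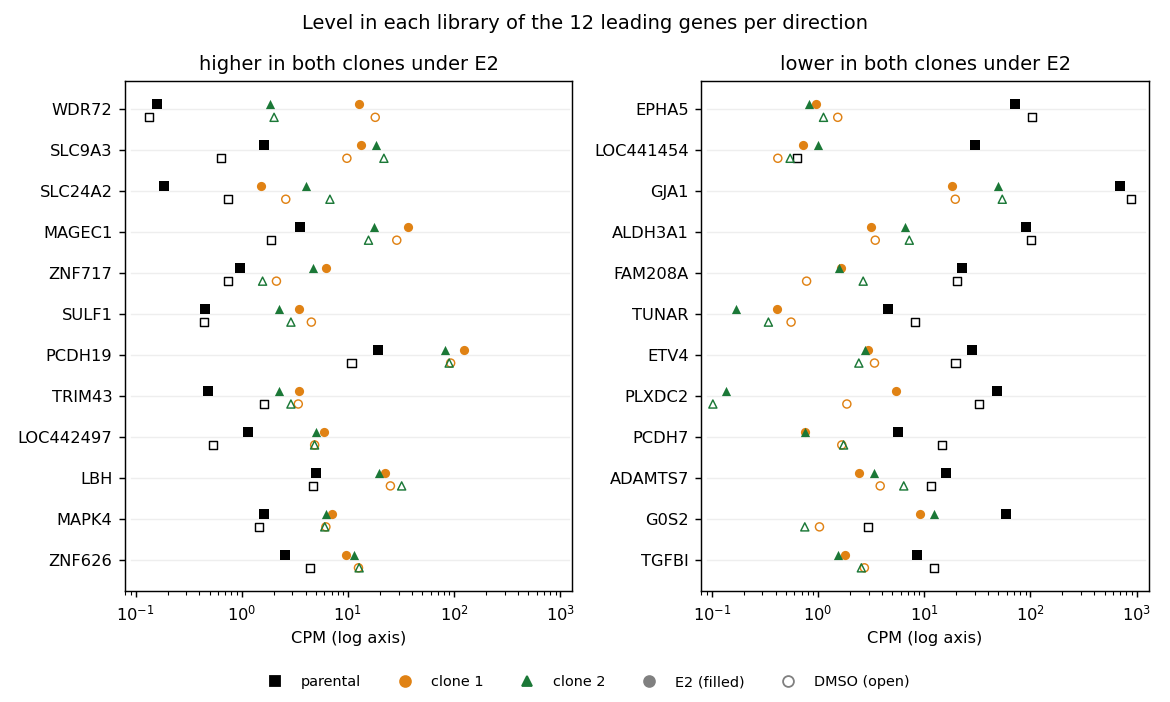
CPM on a log axis in each library for the 12 leading genes per direction, with squares for the parental line, circles for clone 1, triangles for clone 2, filled for E2 and open for DMSO. By the selection both clones lie above the parental line under E2 in the left panel and below it in the right one, and LOC441454 is the 1 gene of the right panel whose parental DMSO value lies close to those of the clones.

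Some feedback inhibitors of the ERK pathway were lower in the clones and others were not. Of 13 measured PEA3 factors and feedback genes, 3 were at least 2-fold lower in both clones (ETV4, SPRY1 and SPRY4) and none was higher, with a list median of -0.42 on the log2 scale against 0.01 over all genes measured. SPRY1 read 76.5 CPM in the parental library and 28.6 and 32.6 CPM in the clones. SPRY4 read 61.2 CPM against 30.3 and 17.4 CPM. Both encode Sprouty proteins, which dampen receptor tyrosine kinase signals. DUSP5 and SPRED2, other inhibitors of the pathway, lay slightly above the parental level in both clones: DUSP5 read 6.63 CPM in the parental library and 7.64 and 8.06 CPM in the clones. DUSP6, the ERK phosphatase, was lower by less than the line in 1 clone, at 143 CPM against 77.3 and 52.1 CPM. EGR1, an immediate early gene of the same pathway, was on the other side, at 109 CPM in the parental library and 166 and 186 CPM in the clones. Of the paralogs, ETV1 lay on either side of the parental level and ETV5 slightly below it in both clones. ETV1 read 4.94 CPM in the parental library, 8.23 CPM in clone 1 and 3.18 CPM in clone 2, while ETV5 read 57.7 CPM against 50.5 and 44.9 CPM. Neither was called, with edgeR quasi-likelihood adjusted p = 0.984 for ETV1 and 0.842 for ETV5.

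Among regulators of transcription, the inhibitors ID2 and ID3, which block basic helix-loop-helix factors, were both lower; they were picked out after their values were seen. ID3 read 12.1 CPM in the parental library and 3.22 and 3.21 CPM in the clones, and ID2 read 12.6 CPM against 5.49 and 5.88 CPM. GLI1, the hedgehog effector, read 8.20 CPM against 3.53 and 3.59 CPM, and was chosen in the same way.

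On the higher side the leading genes included ion carriers of the cell surface. SLC9A3, the sodium-proton exchanger NHE3 of absorptive epithelia, read 1.60 CPM in the parental library, 13.4 CPM in clone 1 and 18.6 CPM in clone 2, which is 9.50-fold higher. It was the 1 gene of 12 measured exchangers and brush border scaffolds beyond the line. SLC24A2, an exchanger of sodium for calcium and potassium, read 0.187 CPM against 1.51 and 3.997 CPM. WDR72, a WD repeat protein, had the largest ratio but few parental reads: 0.160 CPM in the parental library, from 6 counts (exact 95% Poisson interval 0.0588 to 0.349 CPM, counting error only), 12.8 CPM in clone 1 and 1.84 CPM in clone 2. The levels of WDR72 in the clones were themselves far apart. Both lay above the parental interval, but the selection used that same parental value, so this adds no support.

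Adhesion molecules and their partners were found on the higher side as well as on the lower. PCDH19, a protocadherin of the delta group, read 19.2 CPM in the parental library and 123 and 82.4 CPM in the clones, 5.22-fold higher, the opposite of PCDH7. EFNB2, an ephrin-B ligand, read 18.9 CPM against 52.9 and 43.7 CPM, so that of 18 measured Eph receptors and ephrins 1 receptor (EPHA5) was lower and 1 ligand higher. Its list median was -0.00 on the log2 scale. The integrin subunit ITGB8 read 98.5 CPM in the parental library and 254 and 200 CPM in the clones. SULF1, which trims sulfate groups from heparan sulfate on the cell surface, read 0.454 CPM against 3.43 and 2.22 CPM.

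LBH, a transcriptional cofactor known as a Wnt target, read 5.05 CPM in the parental library and 22.2 and 19.4 CPM in the clones. Of 13 measured Wnt targets it was the 1 beyond the 2-fold line, while AXIN2, the standard reporter of the pathway, read 7.94 CPM against 9.46 and 12.3 CPM. MAPK4, an atypical MAP kinase, read 1.60 CPM against 7.06 and 6.18 CPM. CDKN1A, which encodes the cyclin-dependent kinase inhibitor p21, read 34.6 CPM in the parental library and 73.4 and 79.3 CPM in the clones. CDKN1C (p57), picked out after its values were seen, read 4.57 CPM against 19.4 and 10.6 CPM. None of 38 replication and mitosis genes was at least 2-fold off in both clones, but 27 of the 38 lay below the parental level in both clones, against 33.1% of all genes measured, with a list median of -0.16. PLK1, a mitotic kinase, read 151 CPM against 95.3 and 106 CPM. MCM6, a subunit of the replicative helicase, read 169 CPM against 206 and 190 CPM.

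MAGEC1, a cancer-testis antigen, read 3.50 CPM in the parental library and 36.9 and 17.8 CPM in the clones, 7.20-fold higher. TRIM43 read 0.481 CPM against 3.50 and 2.22 CPM. LOC442497 read 1.15 CPM against 5.90 and 4.95 CPM.

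Genes in families of close copies were frequent among the higher genes, a pattern noticed after the values were seen. Genes with a ZNF symbol, most of which encode zinc finger repressors, were 3.7% of the genes measured and 10.7% of the higher ones, with 9 of 457 higher and none lower. The 457 had a median of 0.14 on the log2 scale, and 58.9% lay above the parental level in both clones, against 35.9% of all genes measured. ZNF717 read 0.962 CPM in the parental library and 6.27 and 4.71 CPM in the clones. ZNF626 read 2.56 CPM against 9.63 and 11.4 CPM. The clustered protocadherins, neuronal-type adhesion molecules encoded in tandem arrays, had 6 of 19 measured members higher and none lower, with a median of 0.92. PCDHB16 read 2.51 CPM in the parental library, 6.38 CPM in clone 1 and 16.0 CPM in clone 2. PCDHGB4 read 11.7 CPM against 30.8 and 31.6 CPM. The arrays share exons or near-identical sequence, so that reads can be divided between members and their counts are not independent.

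**Figure D3:**
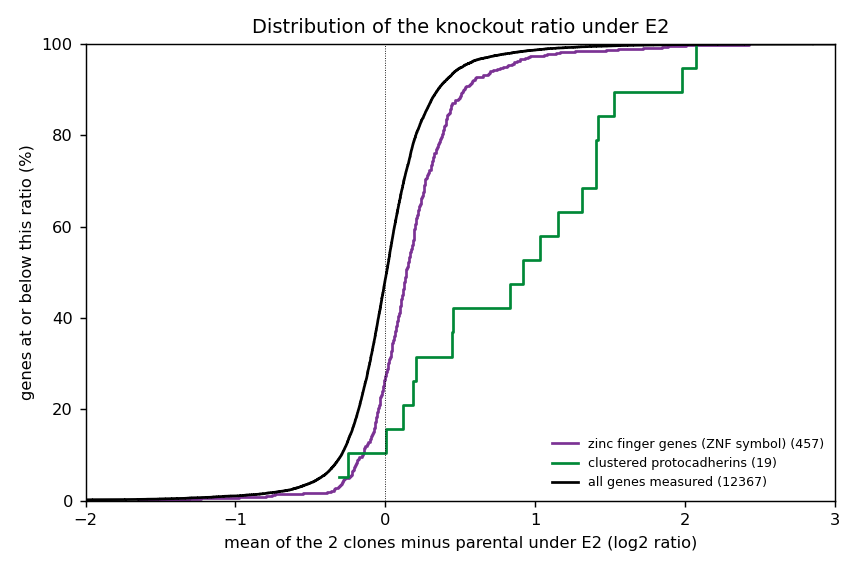
Cumulative share of genes (vertical, percent) at or below each mean log2 ratio of the clones to the parental line under E2 (horizontal, shown from -2 to 3) for ZNF-symbol genes, clustered protocadherins and all genes. The protocadherin curve lies to the right with its median at 0.92, and the ZNF curve is shifted less, with a median of 0.14.

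The listed estrogen-induced genes, taken from general knowledge, showed little common shift. Selected genes that moved with E2 in the parental line are given further below. Of 29 measured estrogen-induced genes, 1 was at least 2-fold higher in both clones and none was lower, with a median of 0.06, and of 17 receptors and cofactors none passed the line, with a median of 0.02. The exception was EGR3, an immediate early transcription factor, at 3.58 CPM in the parental library, 8.81 CPM in clone 1 and 18.5 CPM in clone 2. PGR read 34.8 CPM in the parental library and 71.5 and 62.7 CPM in the clones, higher in both but short of 2-fold in clone 2. In DMSO PGR read 1.61 CPM in the parental line and 7.31 and 2.66 CPM in the clones. Its log2 change from DMSO to E2 was 4.38 in the parental line and 3.28 and 4.52 in the clones. The next 2 genes are again given under E2. GREB1 read 50.1 CPM against 60.0 and 66.2 CPM, and ESR1 read 154 CPM against 203 and 149 CPM, so that the parental ESR1 level lay between those of the clones. None of the 3 was called, with edgeR quasi-likelihood adjusted p = 0.304 for PGR, 0.835 for GREB1 and 0.949 for ESR1.

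Across all 19 gene lists the medians ran from -0.42 for the PEA3 and feedback genes to 0.18 for the Wnt targets, and 5 lists had no member beyond the line. These 5 were the estrogen receptors and cofactors, replication and mitosis, uterine secretory and receptivity genes, the BCL2 family, and glycolysis and hypoxia. IFIT1 was the 1 gene lower of 15 interferon and antigen presentation genes, at 2.27 CPM in the parental library and 1.03 and 0.888 CPM in the clones. Of 13 measured genes linked to PEA3 factors in cancer cells, CXCR4 was higher and none was lower. Of the metalloproteinase genes of that list, MMP1, MMP2 and MMP7 had 0 CPM in all 3 libraries, while MMP11 read 2.59 CPM in the parental library and 1.17 and 1.74 CPM in the clones. VIM, which encodes the intermediate filament protein vimentin, was on the same list and was singled out after its values were seen. It lay under the level filter, with a mean of 1.03 CPM. It had 95 counts in the parental E2 library and 0 in either clone, which is at least 24.7-fold lower in clone 1 and at least 24.8-fold lower in clone 2 with a floor of 3 counts per library. In DMSO VIM had 108 counts in the parental library, 0 in clone 1 and 1 in clone 2.

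**Figure D4:**
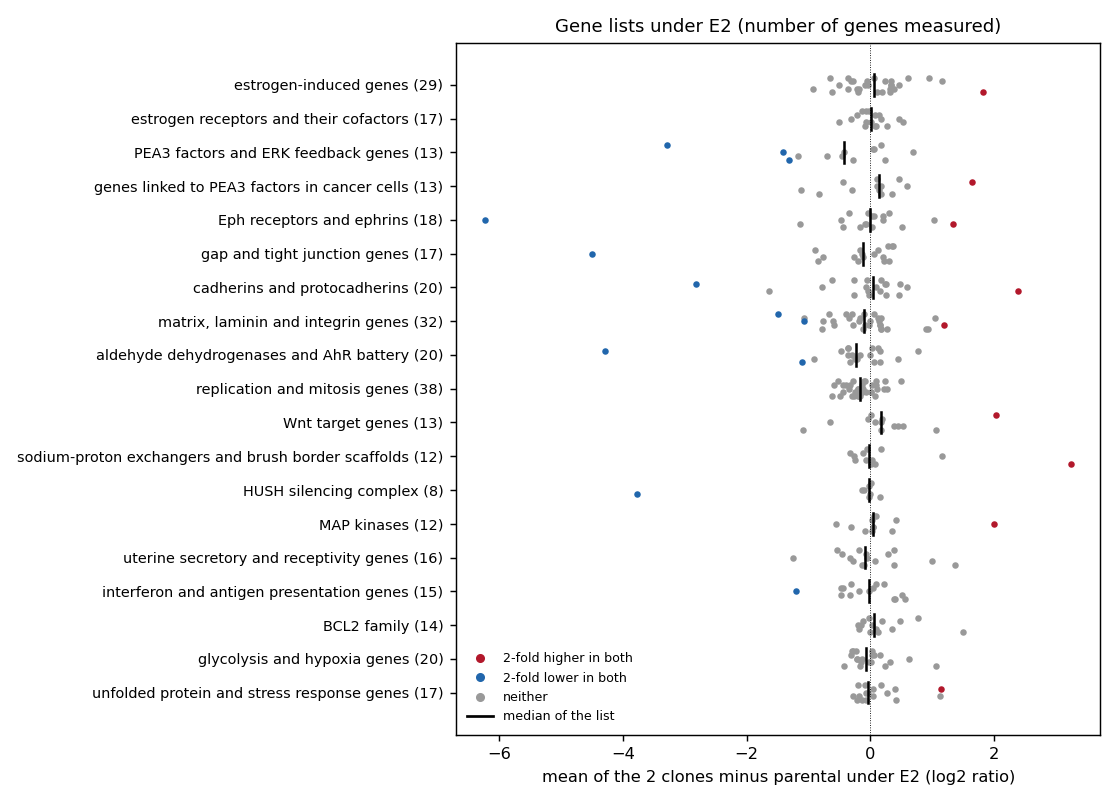
Mean log2 ratio of the 2 clones to the parental line under E2 (horizontal) for each measured gene of the 19 lists, red where at least 2-fold higher in both clones, blue where at least 2-fold lower, with a bar at the list median. The medians lie between -0.42 and 0.18, and most lists with a coloured point have 1 or 2 of them.

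The DMSO libraries showed how much of the difference was present without hormone. Of the 84 higher genes, 54 (64.3%) passed the same 2-fold line in both clones in DMSO too, against 2.18% of all genes measured. Of the 64 lower genes, 30 (46.9%) were at least 2-fold lower in both clones, against 0.55% of all genes. These are the same clones, so knockout and line cannot be told apart in either treatment. Read the other way, 20% of the 270 genes higher in DMSO and 44.1% of the 68 genes lower in DMSO were in the E2 sets. Of the remaining higher genes all 30 had the same direction in both clones. Of the remaining lower genes 28 did, 4 were mixed (MEMO1, P2RY2, ITGB3 and COL4A2) and 2, POTEE and IL4R, lay above the parental level. The share of all genes with the same direction in both clones in DMSO is not given here. Both clones share 1 parental DMSO library, so these counts of direction are not read as a result. The median of the mean log2 ratio was 1.54 under E2 and 1.43 in DMSO for the higher genes, and -1.51 and -1.24 for the lower ones. The E2 medians come from the values that the selection used and the DMSO medians do not, so the comparison is not a like one. EPHA5 was at 103 CPM in the parental DMSO library and 1.53 and 1.13 CPM in the clones, and GJA1 at 886 CPM against 19.6 and 54.3 CPM, so both gaps were present in either treatment.

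**Figure D5:**
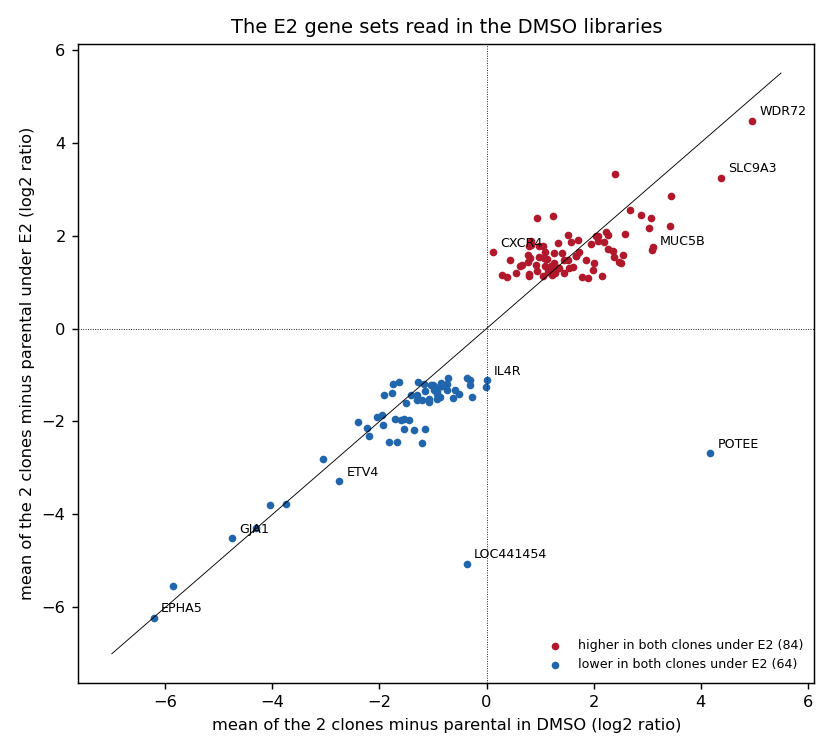
Mean log2 ratio of the clones to the parental line in DMSO (horizontal) and under E2 (vertical) for the 148 genes, with a diagonal of equal ratios. Most genes lie near the diagonal, CXCR4, IL4R and LOC441454 lie near 0 on the horizontal axis, and POTEE lies on the opposite side of it.

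Of the 148 genes, 8 lay within 1.5-fold of the parental line in both clones in DMSO. Their gap under E2 was set by the selection and rests on 1 parental E2 library. The share of all genes within 1.5-fold in DMSO is not given here, so the count is not read as a result. These 8 were picked out by that reading and are a description. IL4R, a subunit of the interleukin 4 receptor, read 12.1, 12.1 and 12.2 CPM in DMSO for the parental line, clone 1 and clone 2. Under E2 it read 48.5 CPM in the parental line and 22.9 and 21.9 CPM in the clones, so all 3 lines were higher with hormone and the clones by less. P2RY2, a receptor for extracellular nucleotides, read 17.1, 16.6 and 17.4 CPM in DMSO. Under E2 it read 44.3 CPM in the parental line and 16.6 and 20.6 CPM in the clones. The imprinted gene PEG10 read 632 CPM in the parental line and 498 and 519 CPM in the clones in DMSO, then 1865 CPM against 854 and 745 CPM under E2. ALDH1L1 and LOC441454 completed the lower genes of this kind. Among the higher genes there were 3, CXCR4, ZNF585A and C12orf56. CXCR4, the chemokine receptor for CXCL12, read 3.70, 3.85 and 4.17 CPM in DMSO. With hormone it stood lower in the parental line, at 1.55 CPM, and at 4.76 and 5.16 CPM in the clones.

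A change of the parental line with hormone could be read only against its 1 DMSO library, which leaves the parental E2 library in both differences. Of the higher genes, 15 were at least 2-fold higher and 12 at least 2-fold lower with E2 in the parental line. Of the lower genes, 10 were higher and 4 lower, beside 7.64% higher and 3.87% lower of all genes measured. The median level was 8.76 CPM for the higher genes and 9.56 CPM for the lower ones, against 37.05 CPM for all genes measured. The shares over all genes thus come from genes of higher level and are not a like background. The mucin gene MUC5B, one of the 15, read 0.672 CPM in DMSO and 20.8 CPM under E2 in the parental line, and 50.1 and 89.3 CPM under E2 in the clones. ANO1, a calcium-activated chloride channel, read 12.8 CPM in DMSO and 198 CPM under E2 in the parental line, and 399 and 474 CPM under E2 in the clones. The lipid droplet proteins PLIN4 and PLIN5 had the same order: PLIN4 read 1.11 CPM in DMSO and 11.01 CPM under E2 in the parental line, and 26.9 and 22.4 CPM under E2 in the clones. The DMSO levels of MUC5B, ANO1 and PLIN4 in the clones are not given here. Their values therefore do not tell a higher level without hormone from a larger change with it. G0S2, one of the lower genes, read 2.96 CPM in DMSO and 58.4 CPM under E2 in the parental line. In clones 1 and 2 G0S2 read 1.03 and 0.751 CPM in DMSO and 9.08 and 12.4 CPM under E2. It was thus lower in the clones in either treatment and higher with hormone in every line. These genes were chosen for description after their values were seen.

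Whether the knockout difference itself differed between E2 and DMSO was tested as an interaction over the 6 libraries. The unpaired edgeR quasi-likelihood fit called 0 of 15611 genes at an adjusted p of 0.05, with 1190 at an unadjusted p under 0.05. With each line as a replicate block it called 2470 (15.8%), with 1 residual degree of freedom that comes from the clones alone. Among the selected genes that fit called 19 of 84 higher (22.6%) and 11 of 64 lower (17.2%), shares near the 15.8% of all genes.

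Promoter windows were read to see whether the selected genes share a binding sequence for the factors under study. RefSeq promoters (build GRCh38.p14) were matched for 70 of the 84 higher genes, 47 of the 64 lower genes and 10048 of all genes measured, and the 250 bases before the start were searched on both strands. The PEA3 site AGGAAG was present in 38.3% of the lower, 27.1% of the higher and 27% of all promoters. The ETS core CCGGAAG was present in 4.26% of the lower, 10% of the higher and 16.5% of all. The letters TGACC, 1 arm of the estrogen response element, were in 29.8%, 32.9% and 29.7%. A full consensus estrogen response element, with both arms of a palindrome around 3 free bases and so containing TGACC, was found in 0 promoters of either set and in 1 of all 10048. The windows below are from leading genes with a match, shown 5′ to 3′ on the gene's strand with the matched letters in capitals (CTTCCT is the PEA3 site on the other strand). They show the letters present, not binding.
EPHA5: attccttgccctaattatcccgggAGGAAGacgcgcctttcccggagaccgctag
G0S2: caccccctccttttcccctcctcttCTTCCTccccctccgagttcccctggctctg
TGFBI: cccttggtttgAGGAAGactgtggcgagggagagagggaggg
SLC9A3: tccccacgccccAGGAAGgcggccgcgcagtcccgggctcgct
ZNF717: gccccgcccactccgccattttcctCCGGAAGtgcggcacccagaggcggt

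The EPHA5 window lies at chr4:65670685-65670739 on the minus strand, the G0S2 window at chr1:209675277-209675332 on the plus strand and the TGFBI window at chr5:136028738-136028779 on the plus strand. The SLC9A3 window lies at chr5:524657-524699 on the minus strand and the ZNF717 window at chr3:75785550-75785600 on the minus strand. In EPHA5, TGFBI and SLC9A3 the match begins 226, 239 and 238 bases before the start, in G0S2 110 bases before it and in ZNF717 26 bases before it. The deposited counts were made on the older build hg19, so these coordinates describe the reference windows and not the reads.

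Among the measured genes in RefSeq order, 9 pairs of next neighbours were both selected and moved the same way. Unmeasured genes may lie between the members of a pair, and no background count of such pairs was made. The 9 pairs included PLIN4 with PLIN5, TCL1B with TUNAR, ZNF208 with ZNF257, and PCDHB13 with PCDHB14. Close to ETV4 itself, LSM12, which encodes an RNA-binding protein, lay with 4 measured genes between them. LSM12 read 113 CPM in the parental E2 library, 40.2 CPM in clone 1 and 15.3 CPM in clone 2, and in DMSO 118, 23.4 and 91.0 CPM. Its 2 clones thus changed order between treatments. Of the 20 measured genes nearest to ETV4, 10 on each side, LSM12 was the 1 at least 2-fold off in both clones, and the other 19 had mean log2 ratios between -0.97 and 0.17.

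The GC content of the transcripts moved with the ratios. Spearman's rho across genes, which are not replicates, was -0.34 for clone 1 and -0.09 for clone 2, with a value for 98.4% of the genes. The median GC content was 50.1% for the higher genes, 52.2% for the lower ones and 47.9% for all. A correction for GC content and length left 88 genes higher and 56 lower. At the edge of the selection, PRSS1 and DNAH7 were just inside on the higher side, with smaller log2 ratios of 1.01 in both cases, and KCNMB2-AS1 and CREB5 just outside at 1.00 and 0.99. On the lower side DHRS2 and MYADM were just inside, at -1.005 and -1.0012, and COL4A1 just outside, at -0.99. Strand was kept by the library kit, but its use in counting is not given in the sources used here, so overlapping genes may share reads.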

How the data were processed

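RNA-seq was read from 6 libraries, of which the 3 treated with E2 carry the comparison. The authors deposited a table of raw counts per gene and library, and a second table of normalized values, a signal per gene that the authors' file labels as normalized counts. That deposited signal equalled the raw count divided by a median-ratio size factor in every library, and it entered no test. The submitters' processing notes name HISAT2, SAMtools, Subread, DESeq2 and hg19, without role or version. The annotation and the use of strand in counting are not given in the sources used here. The tables' columns write DMOS and ER, read as DMSO and E2.

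In R 4.3.3 with edgeR 4.0.16, libraries were scaled by TMM over the genes kept by filterByExpr on the 4 groups. Log2 CPM used a prior count of 2, and genes averaging 2 CPM or more across all libraries were described. Testing of counts used the quasi-likelihood test of edgeR on the 3 E2 libraries with Benjamini-Hochberg adjustment over all genes tested. Standard errors are the log2 change over the square root of F. Depth ran from 28037392 to 36829479 counts, and counting intervals cover counting error only. Nothing in the labels says whether libraries came from separate cultures. Named genes were the 12 per direction with the largest smaller ratio of the 2 clones, ETV4, ETV1, ETV5, ESR1, PGR and GREB1, list members beyond 2-fold in both clones, and the 2 genes just inside and outside that line, of which 1 is not reported here. Any other gene was chosen after its values were seen. The members and lists were chosen with earlier results of these data known. Clone numbers in the labels tie each DMSO library to the E2 library of the same line, and the difference between the clones correlated at 0.626 across genes between treatments. Alternatives were other scalings, filters, prior counts and thresholds, DESeq2 1.42.0, limma 3.58.1 (voom), a replicate block, GC and length correction and each clone left out.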

Additional observations from a re-analysis of the deposited data

Results flagged for a closer look

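Under E2 2 of the selected genes stood below the parental level in both clones and in DMSO above it in both clones. POTEE had a mean log2 ratio of -2.69 under E2, from 8.23 CPM in the parental line and 0.686 and 2.15 CPM in the clones. In DMSO it read 0.135 CPM in the parental line and 9.15 and 1.33 CPM in the clones. POTEE belongs to a family of near-identical copies, so its reads are uncertain. IL4R had a mean log2 ratio of -1.11 under E2. Its DMSO levels of 12.1, 12.1 and 12.2 CPM lie so close together that the opposite sign there is no measurable difference. The opposite directions are a description: the unpaired interaction, the edgeR quasi-likelihood fit over 6 libraries, called 0 genes at an adjusted p of 0.05, with 1190 at an unadjusted p under 0.05.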

How the results depend on the processing

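The counts of genes beyond 2-fold in both clones depended on the line and the filter. The 84 higher genes became 307 with no filter on low counts, 276 at 1.5-fold and 9 at 4-fold, and the 64 lower genes became 265, 182 and 13. With 1 clone left out, the rule met 159 to 239 higher and 151 to 196 lower genes. Other scalings, prior counts, a stricter filter of 5 CPM, and the GC and length correction left both counts within 1.5 times. The median ratio of all genes stayed between -0.0032 and 0.0124 under the scalings. Of the selected genes, 84 moved at least 2-fold the same way in DMSO, and 142 had the same sign there. No share over all genes is given for the count of 142, which is not read as a result.

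The number called by the edgeR quasi-likelihood test changed with every alternative: from 4 to 2 with median-ratio size factors, 2 with at least 10 counts in every library, 2 in the 6-library fit and 0 with no filter on low counts (788 at an unadjusted p under 0.05). DESeq2 called 115, with all 4 genes among them, and limma-voom 1 (EPHA5). With no filter the adjusted p was 0.195 for EPHA5 and 0.702 for the other 3. Leaving out 1 clone gave 154 to 167, from a spread that rests on the DMSO clones. With a replicate block in limma-voom over the 6 libraries, added after seeing the data, 8 genes were called, against 2 in limma-voom without the block. The interaction went from 0 to 2470 genes with the replicate block. The block planned with limma's duplicateCorrelation was not run, because it returned no value. The cause of these differences was not tested. For the 40 named genes, other scalings and prior counts left 157 values within the clone spread and moved 3, for FAM208A and PCDH7 with the prior count. Leaving out a clone leaves the other clone's own ratio, which turned sign for ETV1 and ESR1. With 1 parental library per treatment, the spread of the parental line was not measured.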
